A study of Mus musculus with 4 samples.

Results

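The 5 subunits of the transcription factor NF-kB and 5 of its inhibitors and feedback regulators were measured by RNA sequencing in FAP+ cells sorted from a spontaneous model of pancreatic ductal adenocarcinoma in mice. The members were the rows of the deposited count table that carry, in the lower case of that table, the symbols nfkb1, nfkb2, rel, rela, relb, nfkbia, nfkbib, nfkbiz, tnfaip3 and bcl3, written here as Nfkb1 and so on. All 10 were found among 22609 genes, and all 10 were among the 13875 genes that passed the filter on low counts. FAP, fibroblast activation protein, is a surface protease of stromal cells in tumours. The cells were split by CD34, a surface sialomucin, into FAP+ CD34+ and FAP+ CD34- cells, with 2 libraries of each. Both groups came from the same tumour model on the C57BL/6 background, with no treatment given in the labels. No label used here gives the alleles of the model, the ages of the mice or how many animals made up a library. The titles call the libraries biological replicates, so that p-values measure the spread between these libraries only. The comparison asked how the 2 fractions of FAP+ cells differ in the transcripts of this pathway.

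NF-kB proteins are dimers of subunits that share the Rel homology domain. In resting cells, inhibitors of the IkB family hold the dimers in the cytoplasm. Receptors for TNF, interleukin-1 and microbial products activate the IKK kinase complex, which marks the inhibitors for destruction and frees the dimers to enter the nucleus. Many target genes of NF-kB encode its own subunits and inhibitors, which makes the pathway a feedback circuit. In fibroblasts of tumours the pathway is known for driving chemokines and cytokines.

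Promoters of the members are shown because such feedback runs through sites that bind NF-kB upstream of the genes. RefSeq promoter entries of build GRCm38.p6 were matched by symbol for 7 of the 10 members, with 10 entries in all; Nfkb1, Relb and Nfkbiz had none. The 250 bases before each start site were searched on both strands for the 10-base kappa-B consensus, and overlapping matches are each counted. The consensus was GGG, then A or G, 2 of any base, 2 of C or T, and CC. Shorter or looser forms of the site were not searched. A match was found in 6 of the 10 entries, belonging to 4 genes, and in 7.25% of all 32851 promoter entries. The sequences run 5′ to 3′ on the strand of the gene and end at the base before the start site, with matches in capitals. Those of the 4 genes with a match are followed by that of Bcl3, as an example of an entry without a match in this window.
Nfkbia, chr12:55492648-55492897, minus strand: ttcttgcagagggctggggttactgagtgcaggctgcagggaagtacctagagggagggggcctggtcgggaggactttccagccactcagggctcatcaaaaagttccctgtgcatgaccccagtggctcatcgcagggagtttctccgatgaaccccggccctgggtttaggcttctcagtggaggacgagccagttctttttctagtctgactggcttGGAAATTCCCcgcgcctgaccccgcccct
Nfkb2, chr19:46304487-46304736, plus strand: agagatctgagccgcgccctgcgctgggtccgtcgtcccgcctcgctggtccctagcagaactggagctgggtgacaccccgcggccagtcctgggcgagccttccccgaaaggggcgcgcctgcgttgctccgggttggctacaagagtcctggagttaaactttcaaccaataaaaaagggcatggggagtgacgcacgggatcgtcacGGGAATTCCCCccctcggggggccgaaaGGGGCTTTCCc
Tnfaip3, chr10:19015411-19015660, minus strand: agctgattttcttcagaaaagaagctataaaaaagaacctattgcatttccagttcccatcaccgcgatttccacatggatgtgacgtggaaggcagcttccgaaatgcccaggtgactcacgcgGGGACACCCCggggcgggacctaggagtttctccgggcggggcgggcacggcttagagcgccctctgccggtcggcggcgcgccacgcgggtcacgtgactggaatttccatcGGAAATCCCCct
Rel, chr11:23770970-23771219, minus strand: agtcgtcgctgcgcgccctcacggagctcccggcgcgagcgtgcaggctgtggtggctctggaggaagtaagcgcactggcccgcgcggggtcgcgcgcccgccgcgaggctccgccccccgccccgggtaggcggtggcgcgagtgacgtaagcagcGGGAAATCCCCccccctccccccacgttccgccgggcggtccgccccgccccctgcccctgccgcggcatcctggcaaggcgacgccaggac
Bcl3, chr7:19822756-19823005, minus strand: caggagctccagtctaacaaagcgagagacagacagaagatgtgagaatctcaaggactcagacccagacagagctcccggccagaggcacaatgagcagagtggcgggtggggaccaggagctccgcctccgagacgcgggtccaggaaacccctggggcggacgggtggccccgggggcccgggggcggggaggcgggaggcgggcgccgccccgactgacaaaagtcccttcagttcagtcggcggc
In Nfkbia the match ran from base 29 to base 20 before the start site. In Nfkb2 the entry shown held 3 matches, a pair of them overlapping, and 1 match stood in each of its 2 other entries. In Tnfaip3 the matches began 125 and 12 bases before the start site, and in Rel 2 overlapping matches began 92 and 91 bases before it. Entries of Rela, Nfkbib and Bcl3, and the other entry of Tnfaip3, held no match in this window. A match describes the letters only, and no binding was measured.

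The libraries held 10322354 to 14633561 counts in all, of which the 10 members took 35341 to 74747. Levels are given as CPM, counts scaled to the library total, first for CD34+ replicate 1 and replicate 2 and then, after the word against, for CD34- replicate 1 and replicate 2. Cd34 was 143 and 293 CPM against 18.3 and 23.9 CPM. Fap was 79.0 and 39.8 CPM against 142 and 136 CPM. The 8 fibroblast markers were all measured, led by Col1a2, and summed to 36159 to 40047 CPM in each library. Of the 8, 4 were lower in CD34+ without overlap (26.6% of all genes) and 0 higher (23.4%), with a list median of -0.056 on the log2 scale. Summed markers of other cells were 108 to 121 CPM against 34.6 to 36.9 CPM for the endothelial list (10 of 10 measured, Ramp2 the most abundant). They were 162 to 246 against 121 to 169 CPM for the myeloid list (9 of 10, led by Cd14), 233 to 397 against 158 to 249 CPM for the mesothelial list (6 of 6, led by Wt1), 485 to 754 against 366 to 707 CPM for the epithelial list (7 of 7, led by Krt8), and 281 to 336 against 452 to 532 CPM for the pericyte list (7 of 7, led by Cspg4). Some of the single pericyte markers differed more than their sum. Cspg4, at 243 and 51.9 against 139 and 196 CPM, overlapped, while 4 of the 7 pericyte markers were lower in CD34+ without overlap (26.6% of all genes) and the list median was -1.71 on the log2 scale. Among these, Rgs5, chosen like Higd1b after the values were seen, was 2.13 and 7.33 against 45.5 and 89.7 CPM, and Higd1b 0.0969 and 0.513 against 4.69 and 4.17 CPM (adjusted p = 0.169 and 0.173, edgeR). The pericyte markers Kcnj8 and Abcc9 went the other way, with log2 fold changes of 0.57 and 0.24, and overlapped between groups. Of the 10 endothelial markers 9 were higher without overlap (23.4% of all genes) and 1 lower (26.6%), with a median of 1.86. Of the 9 myeloid markers 3 were higher and 1 lower without overlap, with a median of 0.85. Of the 6 mesothelial markers 3 were higher and 0 lower (median 0.84), and of the 7 epithelial markers 1 and 0 (median 0.56). The shares of all genes are the same for these lists. The lymphocyte list (9 of 10) summed to 23.5 and 5.20 against 3.10 and 3.14 CPM. Cd3e alone made up 19.0 and 0.293 CPM of the CD34+ sums. It had a count of 0 in both CD34- libraries, which allows up to 0.227 and 0.205 CPM for counting error only. The part of these cells in the results on the members was not tested. In sorted bulk samples fewer cells of a type and less RNA per cell cannot be told apart.

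The log2 fold change of CD34+ over CD34- was above 0 for all 10 members, with a median of 1.15, against 48.7% positive and a median of -0.020 over all tested genes. None passed at an adjusted p of 0.05 over all genes by edgeR's quasi-likelihood test, which called 0% of the 13875 genes in either direction. Without adjustment 5 members, Nfkb1, Nfkb2, Rela, Nfkbib and Bcl3, had an edgeR p under 0.05, all higher, where 9.81% of tested genes were higher and 6.65% lower at that level. DESeq2 called 1 member, Nfkb1 (adjusted p = 0.00847), and 1.61% of genes higher. That share is of 20996 genes, without the filter on low counts, and is not comparable with the shares of the 13875 genes. Limma voom called 0 members, and 0 genes higher or lower over all genes. Both CD34+ libraries lay above both CD34- libraries for 8 of the 10 members, and for 23.4% of all tested genes. The reverse held for 0 members and for 26.6% of genes. The exceptions were Nfkbiz and Tnfaip3. On the authors' own scales the count of members without overlap was smaller, at 5 in the deposited RPKM (12.2% of genes) and 2 in the deposited FPKM (10.6% of genes). By RPKM these were Nfkb1, Nfkb2, Rela, Nfkbib and Bcl3, and by FPKM Nfkb1 and Rel. Those scales moved the median of all genes to -0.31 on log2(RPKM + 1) and log2(FPKM + 1), and the medians of the members were 0.52 and 0.41 there. With 2 libraries against 2 an exact permutation test of a single gene cannot go below a two-sided p of 0.333, so none was run.

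**Figure D1:**
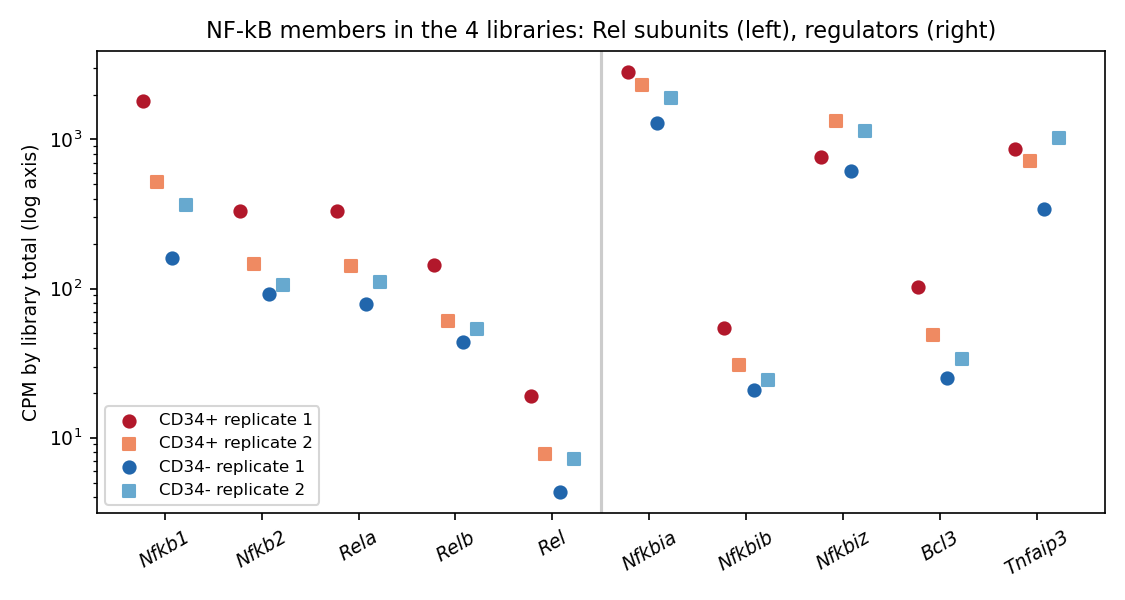
Each point is 1 library, with CPM by library total on a log axis; Rel subunits are left of the line and regulators right of it. For 8 members the libraries follow 1 order, with CD34+ replicate 1 highest and CD34- replicate 1 lowest, while Nfkbiz and Tnfaip3 overlap between groups.

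The subunits were higher in CD34+ libraries by CPM, with the widest gap for Nfkb1. Nfkb1 encodes p105, the precursor of p50, which pairs with RelA in the classical pathway. It was 1802 and 515 CPM against 160 and 366 CPM. The groups did not overlap, but the CD34+ libraries differed from each other more than CD34+ replicate 2 differed from CD34- replicate 2. The fit by edgeR gave a log2 fold change of 2.14 with an SE of 0.72 (adjusted p = 0.253). Without CD34+ replicate 1 it was 0.93 (adjusted p = 0.611, edgeR), and over all 15 alternatives its adjusted p lay between 0.00847 and 0.611.

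Rela encodes p65, the subunit that carries most of the activating function of classical dimers. It was 329 and 142 CPM against 79.4 and 110.3 CPM. As for Nfkb1, CD34+ replicate 1 stood highest and the groups did not overlap. On the log2 scale CD34+ cells were 1.32 higher (SE 0.47; edgeR, adjusted p = 0.268), and 0.56 without CD34+ replicate 1 (adjusted p = 0.608, edgeR).

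Nfkb2 encodes p100, which is cut to p52 when the alternative pathway is switched on, and Relb encodes its usual partner. Nfkb2 was 331 and 146 CPM against 91.8 and 106 CPM. Relb was 143 and 60.6 CPM against 43.5 and 53.9 CPM. For both genes CD34+ replicate 2 lay close to CD34- replicate 2, and CD34+ replicate 1 lay far above. By edgeR the log2 fold change of Nfkb2 was 1.29 with an SE of 0.44 (adjusted p = 0.255), and that of Relb 1.08 with an SE of 0.45 (adjusted p = 0.305). Without CD34+ replicate 1 the values were 0.54 and 0.30 (adjusted p = 0.563 and 0.745, edgeR).

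Rel encodes c-Rel, a subunit best known from lymphocytes. It was 19.0 and 7.77 CPM against 4.31 and 7.24 CPM, from 57 to 196 counts. CD34+ replicate 2 and CD34- replicate 2 each held 106 counts, so that only their library totals set them apart. The difference was 1.21 on the log2 scale (SE 0.56; edgeR, adjusted p = 0.338), and 0.40 without CD34+ replicate 1 (adjusted p = 0.817, edgeR). The library highest in Rel was also the one with 19.0 CPM of Cd3e, a T cell gene. Other T cell genes were low in that library, with Cd3d at 0.0969, Cd8a at 0.194, Cd4 at 0.388 and Lck at 1.65 CPM. Of these, Cd3d, Cd8a and Lck were higher in CD34+ replicate 2, at 0.440, 0.366 and 1.90 CPM, and Cd4 was lower, at 0.147 CPM. The part of T cells was not tested.

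Among the regulators, the inhibitors Nfkbia and Nfkbib and the nuclear cofactor Bcl3 had the same order of libraries as the subunits. Nfkbia encodes IkB-alpha, the inhibitor that is destroyed and rapidly made again after each activation. It was 2845 and 2332 CPM against 1297 and 1891 CPM. The CD34+ libraries were closer to each other than for the subunits. The groups did not overlap by CPM, but overlapped by the deposited RPKM and FPKM. The edgeR fit put the log2 fold change at 0.71 with an SE of 0.39 (adjusted p = 0.408). Without CD34- replicate 1 it was 0.37 (adjusted p = 0.801, edgeR).

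Nfkbib encodes IkB-beta, an inhibitor with slower turnover. It was 54.0 and 30.5 CPM against 20.9 and 24.2 CPM, which edgeR fitted as 0.92 on the log2 scale with an SE of 0.35 (adjusted p = 0.285). Bcl3 encodes an IkB-like protein that works in the nucleus with p50 and p52. It was 103 and 49.2 CPM against 25.04 and 33.7 CPM, and had the smallest p of the members (unadjusted p = 0.0159, adjusted p = 0.230, edgeR; log2 fold change 1.38, SE 0.42). Both genes were highest in CD34+ replicate 1 and did not overlap between groups. Without that library the log2 fold changes were 0.42 for Nfkbib and 0.72 for Bcl3 (adjusted p = 0.630 and 0.514, edgeR).

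Nfkbiz and Tnfaip3 did not separate the fractions. Nfkbiz encodes IkB-zeta, an inducible nuclear cofactor that is needed for a subset of late target genes. It was 757 and 1337 CPM against 611 and 1134 CPM. Within each fraction replicate 2 was the higher library, and the fractions overlapped. The log2 fold change, 0.26 with an SE of 0.47 (edgeR, adjusted p = 0.806), changed sign to -0.21 when CD34+ replicate 2 was left out and to -0.20 when CD34- replicate 1 was left out. On log2(RPKM + 1) and log2(FPKM + 1) it was -0.12 and -0.012, above the median of all genes on those scales, -0.31.

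Tnfaip3 encodes A20, a ubiquitin-editing enzyme that shuts off signalling from TNF and Toll-like receptors. It was 859 and 714 CPM against 341 and 1021 CPM. Both the lowest and the highest value were thus in CD34- cells, and the CD34+ values lay between them. By edgeR the log2 fold change was 0.19 with an SE of 0.56 (adjusted p = 0.881). It was 1.30 without CD34- replicate 2 and -0.46 without CD34- replicate 1 (adjusted p = 0.475 and 0.735, edgeR), so that the sign rests on which CD34- library is used.

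**Figure D2:**
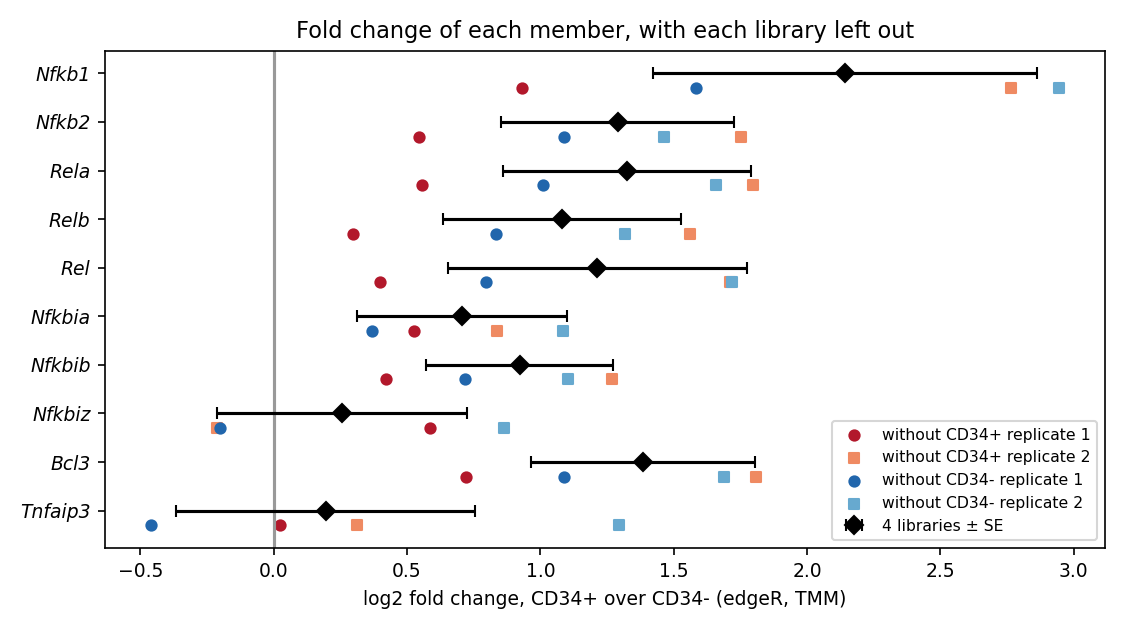
Diamonds are log2 fold changes of CD34+ over CD34- from edgeR with their standard errors (n = 2 libraries per group), and coloured points are the same value with 1 library left out. Leaving out CD34+ replicate 1 gives the lowest value for the 5 subunits, Nfkbib and Bcl3, and the points of Nfkbiz and Tnfaip3 lie on both sides of 0.

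The libraries stood in 1 order for 8 members, namely CD34+ replicate 1, CD34+ replicate 2, CD34- replicate 2 and CD34- replicate 1 from high to low. That order was found in 6.27% of all tested genes. CD34- replicate 1 was the lowest library for all 10 members and for 16.9% of tested genes, and CD34+ replicate 1 was the highest for 8 members and for 28.9% of genes. These orders were picked out after the values were seen. Without CD34+ replicate 1 the groups did not overlap for 9 members (35.5% of genes), while the median log2 fold change of the members was 0.53. Leaving out CD34+ replicate 2 gave 8 members (36.6% of genes) and a median of 1.63, and leaving out CD34- replicate 1 gave 8 members (40.5% of genes) and 0.82. Leaving out CD34- replicate 2 gave 10 members (29.9% of genes) and 1.39. The reverse, lower in CD34+, was then found for 1 member, Tnfaip3, without CD34- replicate 1, beside 33.7% of genes.

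Levels of different members were compared by the deposited RPKM, which scale counts to gene length. Such ranks rest on counts that grow with gene length, which was not checked for this amplified RNA. Nfkbia was first of the 10 in every library, at 1009.6 and 1074 RPKM against 671 and 1032 RPKM. It ranked from 24 to 79 among the 13875 tested genes, within the top 0.569% of each library. Nfkbiz came next by mean RPKM, then Tnfaip3 and Nfkb1, and Rel was last in every library at 1.36 to 4.12 RPKM.

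By RPKM the order was the same in all libraries at its lower end and varied near its top. Rela, Nfkb2, Relb, Bcl3, Nfkbib and Rel held ranks 5 to 10, in that order, in all 4 libraries. Rela at 23.9 to 68.0 RPKM and Nfkb2 at 23.4 to 57.9 RPKM overlapped across libraries, as did Relb (16.2 to 36.4 RPKM) and Bcl3 (11.2 to 31.4 RPKM). The exchange of places was that of Nfkb1, which stood at rank 2 in CD34+ replicate 1 (245 RPKM) and at rank 4 in the other libraries (31.8 to 90.9 RPKM). By the deposited FPKM, Nfkbia was again first, Nfkbib at rank 9 and Rel at rank 10 in every library, but the places between them varied more. Rela moved between ranks 3 and 5 there, Nfkb1 between 2 and 6, and Nfkbiz between 2 and 5. Nfkb2 stood at rank 5 in CD34- replicate 1 and at 6 elsewhere, and Relb and Bcl3 changed places in CD34+ replicate 2.

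**Figure D3:**
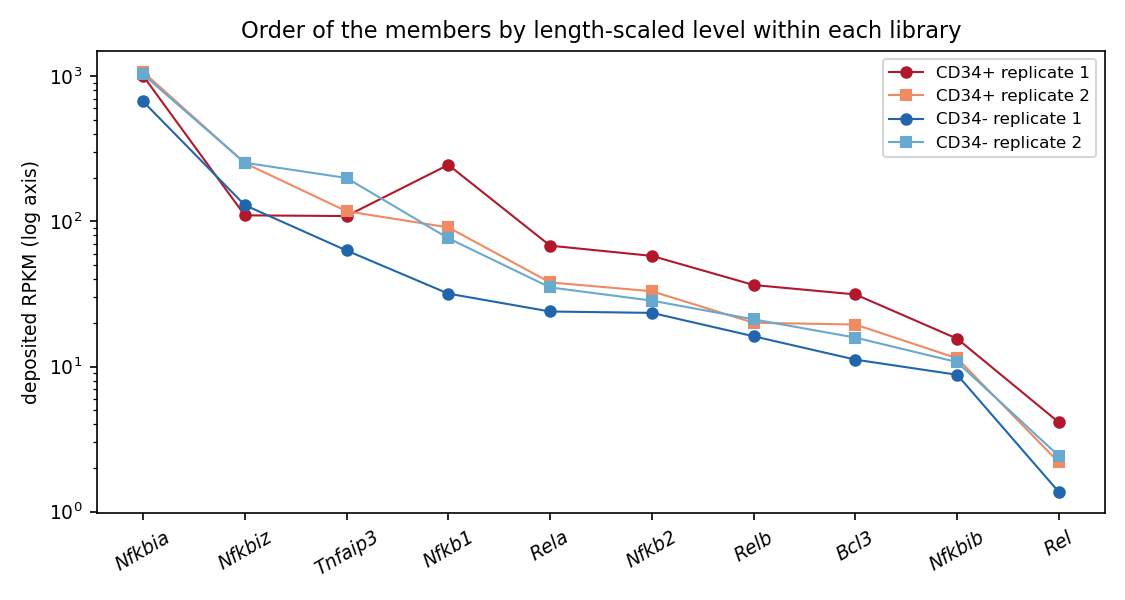
Lines join the deposited RPKM of the 10 members in each library on a log axis, with members sorted by their mean over the 4 libraries. Nfkbia is first and Rel last in all 4 libraries, and Nfkb1 stands at rank 2 in CD34+ replicate 1.

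Ratios of counts between members of the same library do not depend on how libraries are scaled to one another. The counts of Relb per count of Rela were 0.435 and 0.428 against 0.548 and 0.489. This ratio was lower in both CD34+ libraries, with a log2 difference of -0.26. The pooled SD was 0.083 (n = 2 per group), but an SD from so few libraries is poorly known. The counts of Nfkb2 per count of Nfkb1 were 0.184 and 0.283 against 0.573 and 0.289. Here CD34+ replicate 2 and CD34- replicate 2 nearly met, and the log2 difference of -0.84 compares with a pooled SD of 0.58.

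The other ratios overlapped between the fractions. Rel per count of Rela was 0.0577 and 0.0549 against 0.0543 and 0.0657. Nfkbia per count of Nfkbib was 52.7 and 76.5 against 62.1 and 78.2. By the deposited estimated counts the log2 difference of the Rel to Rela ratio was 0.31, in place of -0.086 by counts. Tnfaip3 per count of Rela was 2.61 and 5.05 against 4.30 and 9.26, and it was lower in replicate 1 than in replicate 2 of both fractions. No test was run on these ratios, and how often other pairs of genes lack overlap was not computed. With 2 libraries against 2, an exact permutation test of 1 ratio cannot go below a two-sided p of 0.333.

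**Figure D4:**
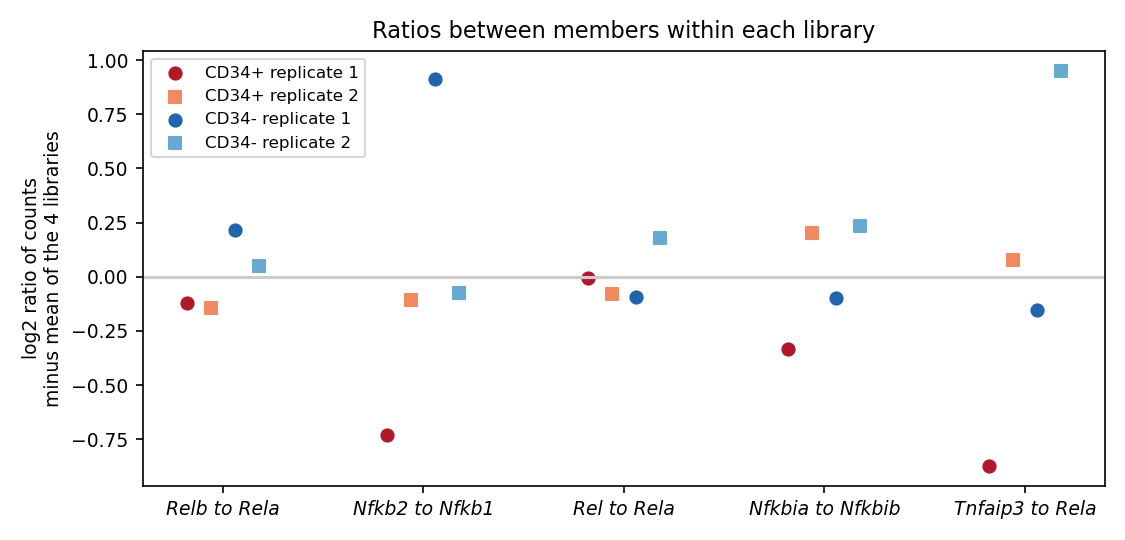
Points are log2 ratios of counts between members of 1 library, minus the mean over the 4 libraries for that pair. Relb to Rela and Nfkb2 to Nfkb1 lie lower in both CD34+ libraries, and the other 3 pairs overlap.

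Other genes of the pathway were read from lists by role, and in all of them 0 genes passed over all genes (edgeR). Genes named for lying on the other side of 0 than most of their list were chosen after their values were seen. Of the 10 genes of the IKK complex and upstream kinases, 4 had a positive log2 fold change (Map3k14, Ikbke, Ikbkb and Tbk1) and the list median was -0.20. Map3k14 encodes NIK, the kinase that starts the alternative pathway, and was 17.1 and 21.2 CPM against 12.1 and 9.98 CPM (unadjusted p = 0.0290, adjusted p = 0.269, edgeR). Ikbkg encodes NEMO, the scaffold of the IKK complex, and was 14.5 and 23.1 CPM against 30.6 and 30.3 CPM (adjusted p = 0.327, edgeR). Ikbke was 29.2 and 29.7 CPM against 23.8 and 20.9 CPM. These kinase genes did not have the order of libraries seen in the subunits.

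Of 13 adaptors and ubiquitin ligases 10 were positive, with a median of 0.19; Traf6, Tradd and Myd88 were negative. Birc2, encoding the ubiquitin ligase cIAP1, was 63.6 and 55.0 CPM against 35.6 and 37.9 CPM (log2 fold change 0.71 with an SE of 0.24; edgeR, adjusted p = 0.257). Traf3, which keeps NIK low in resting cells, was 63.6 and 34.7 CPM against 28.6 and 32.2 CPM, and Irak1, a kinase of interleukin-1 and Toll-like receptor signalling, 149 and 129 CPM against 118 and 104 CPM. Of the 9 tested upstream receptors 7 were positive (median 0.13), with Tlr4 and Ltbr negative. Tnfrsf1b, encoding TNF receptor 2, had no overlap at 83.4 and 73.1 CPM against 33.3 and 40.8 CPM (log2 fold change 1.09 with an SE of 0.26; edgeR, adjusted p = 0.192). Tnfrsf12a at 269.5 and 145 against 141 and 180 CPM, and Il1r1 at 114 and 134 against 115 and 106 CPM, had overlapping groups.

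The 11 further inhibitors and deubiquitinases had a median of 0.66, with 9 positive and Nfkbil1 and Cyld negative. Tnip1 encodes a partner of A20 and was 119 and 65.1 CPM against 34.8 and 43.3 CPM (log2 fold change 1.25 with an SE of 0.37; edgeR, adjusted p = 0.227). It had the same order of libraries as the subunits. Tnip2 was 60.2 and 32.8 CPM against 29.7 and 28.6 CPM, and Zc3h12a, encoding the RNA-degrading enzyme Regnase-1, was 139 and 77.8 CPM against 39.1 and 78.8 CPM.

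Textbook targets of NF-kB had a median of 1.34, with 16 of 17 positive and Ptgs2 negative. The groups did not overlap, higher in CD34+, for 10 of them (23.4% of all tested genes), and an unadjusted edgeR p under 0.05 was reached by 8, all higher (9.81% of genes). Several were known to differ from earlier results of these data, so the list is no independent evidence of direction. Ccl2, the monocyte attractant, was 1622 and 934 CPM against 150 and 398 CPM (adjusted p = 0.214, edgeR). Icam1, an adhesion molecule for leukocytes, was 435 and 443 CPM against 106 and 240 CPM (adjusted p = 0.257, edgeR). Traf1, an adaptor of TNF receptors, was 12.7 and 5.49 CPM against 2.12 and 2.19 CPM (adjusted p = 0.207, edgeR). CD34- replicate 1 was the lowest library for 15 of the 17 targets and for 16.9% of all tested genes. The summed level of the targets was 14849 and 9731 CPM against 3879 and 8740 CPM, so that CD34- replicate 2 lay nearer to CD34+ replicate 2 than to CD34- replicate 1. Leaving out 1 library was added after the values were seen. The groups then did not overlap for 11 targets without CD34+ replicate 1 (35.5% of all genes) and for 15 without CD34+ replicate 2 (36.6%). The count was 11 without CD34- replicate 1 (40.5%) and 16 without CD34- replicate 2 (29.9%).

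**Figure D5:**
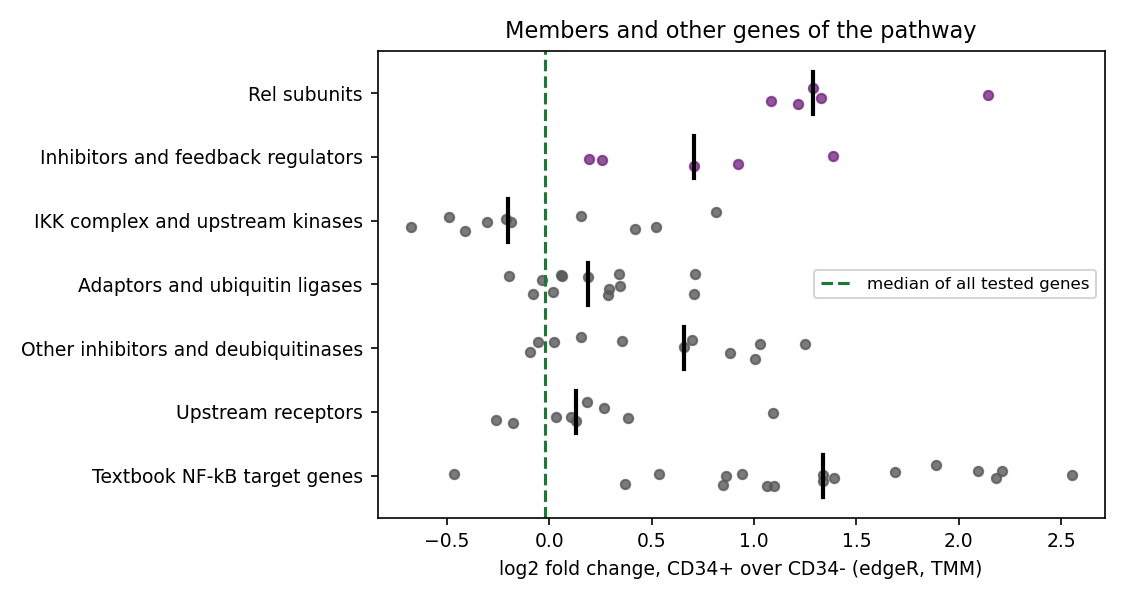
Points are log2 fold changes of single genes (edgeR), purple for the 10 members and grey for other pathway lists, with a black bar at each list's median and a dashed line at the median of all tested genes (-0.020). Subunits and textbook targets have medians of 1.29 and 1.34, and the kinase list -0.20.

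Genes of the immediate early and heat shock response, which can be induced while tissue is taken apart, were read in the same libraries. Of 11 genes 7 were positive, with a median of 0.20. Without overlap, 3 were higher in CD34+ (23.4% of all tested genes) and 2 lower (26.6%). Their sum was 11711 and 19986 CPM against 13408 and 14644 CPM, and so was lowest in CD34+ replicate 1. Fos, the most abundant, was 1943 and 5110 CPM against 3304 and 3313 CPM, with overlapping groups. Fosb was 2722 and 2575 CPM against 736 and 1588 CPM (adjusted p = 0.302, edgeR). Hspa1a, at 301 and 533 against 1339 and 708 CPM, and Hspa1b, at 183 and 409.8 against 1246 and 622 CPM, lay the other way (adjusted p = 0.257 and 0.230, edgeR), and these near-identical genes can share reads. CD34- replicate 1, the lowest library for all 10 members, was the highest for both heat shock genes, and their part in the result was not tested.

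The genes with the profile closest to a member were found by the root mean square difference of centred log2 CPM over the 4 libraries. For Nfkbia, the most abundant member, these were Celf4 (0.017), Clic4 (0.043) and Arid5b (0.060). For Bcl3, the member of smallest p, they were Dom3z (0.042), Fmod (0.056) and Slc1a5 (0.059). With 4 libraries many profiles lie close together by this measure.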

How the data were processed

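RNA was extracted with Purelink and amplified with MessageAmp, per the labels' protocols, so amplified copies of a transcript cannot be counted as separate molecules. Build mm9 and the tools HTSeq, edgeR, Bowtie2 and TopHat2 are named in the submitters' processing notes; versions, annotation and strand use were not given in the sources used here. Without strand, reads from genes that overlap a member cannot be separated from its own. The authors deposited whole-number counts per gene, not normalized. The authors also deposited RPKM of the same genes, whose library totals differ from the sums of the counts, and FPKM that their table name calls bias-adjusted. Estimated counts of fragments, deposited with the FPKM, were rounded here. Tables were joined by gene symbol because their row orders differ. Another 14 columns per table match no sample and were not used.

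Counts of all 4 libraries were tested in edgeR 4.0.16 under R 4.3.3 by quasi-likelihood (F test, TMM, filterByExpr, group as the only term, Benjamini-Hochberg over 13875 genes, two-sided, threshold 0.05). The fit had 2 residual degrees of freedom, to which moderation added 4.17. The SE was computed as the log2 fold change over the root of F. CPM are by column total, and a count of 0 allows up to 3 counts, 0.205 to 0.291 CPM. Alternatives used DESeq2 1.42.0, limma 3.58.1 (voom, or a mean trend on log2 RPKM or FPKM with a pseudocount of 1 or, for RPKM, 0.1), other scalings and filters, the replicate number as a block, estimated counts, and each library left out, when a group of 1 library borrows the spread of the other. The fits were also run on simulated data whose planted changes were larger than those of any member. That run does not show whether changes of the members' size would be called.

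The members and lists were chosen with earlier results of these data known. Beside the members, named genes are Fap and Cd34, up to 3 genes of smallest p per list from a mean of 5 CPM, the most abundant gene of each marker list, and the 3 genes closest in profile (prior count 2) to the most abundant member and to that of smallest p. Further genes of the marker lists, and Fos, were named after their values were seen.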

Additional observations from a re-analysis of the deposited data

How the results depend on the processing

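Over 15 alternatives each, 8 members kept a positive log2 fold change; Nfkbiz and Tnfaip3 did not. The median of all genes was -0.31 on log2(RPKM + 1), -0.42 on log2(RPKM + 0.1) and -0.31 on log2(FPKM + 1), and both genes lay above it on each of these scales. Over the 20996 genes tested it was 0.243 by DESeq2 and 0.175 with no filter. Here Nfkbiz and Tnfaip3 lay below it, at 0.207 and 0.137 by DESeq2 and at 0.173 and 0.103 with no filter. Nfkbiz, between -0.21 and 0.86 with a library left out, was -0.12 on log2(RPKM + 1) and on log2(RPKM + 0.1), -0.012 on log2(FPKM + 1), -0.21 without CD34+ replicate 2 and -0.20 without CD34- replicate 1. Tnfaip3 was -0.0069 on log2(FPKM + 1) and -0.46 to 1.30 with a library left out. DESeq2 called 1 member, Nfkb1, and 339 genes higher and 195 lower; every other alternative called 0 members. Over all genes the counts higher and lower were 194 and 137 with no filter, 5 and 7 on log2(RPKM + 1), and 32 and 66 on log2(RPKM + 0.1). They were 2 and 0 with column totals only, 2 and 0 with a filter of 1 CPM in 2 libraries, and 0 and 0 by limma voom. Under the replicate block 39 and 23 genes were called, and the members' median was 1.04 with 0 called. Deviations from the group means of libraries with the same number correlated at 0.241 over genes, but no label says that the number marks shared animals. The members' median was 0.41 on log2(FPKM + 1) and 0.53 to 1.63 with a library left out. The members higher without overlap numbered 5 by RPKM and 2 by FPKM, and 8 to 10 with a library left out (added after seeing the data), when 0 to 1 were lower; the 1 was Tnfaip3 without CD34- replicate 1. For the textbook targets the range was 11 to 16. The log2 difference of the Rel to Rela ratio was 0.31 by estimated counts, against -0.086; the cause was not tested. Depth limits Rel most, at 57 to 196 counts.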
